A study of Rattus norvegicus with 12 samples.

Results

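Cytochrome c oxidase, complex IV of the mitochondrial respiratory chain, is built partly from subunits that exist as paired isoforms, and the transcripts of these pairs were followed here in the left ventricle of rats after myocardial infarction (MI) with or without urolithin A (UA), a gut metabolite known as an activator of mitophagy. The members were chosen by gene symbol from a list of 10 names: Cox4i1, Cox4i2, Cox6a1, Cox6a2, Cox6b1, Cox7a1, Cox7a2, Cox7a2l, Cox8a and Cox8b. Of these, 7 had a row in the table of 30560 genes, and all 7 were among the 18182 genes with at least 10 counts over the 12 libraries, which were the genes tested. Cox7a2, Cox8a and Cox8b had no row under those symbols and are not analysed here, so that of the 4 isoform pairs only Cox4i2 with Cox4i1 and Cox6a2 with Cox6a1 could be compared as pairs.

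Complex IV takes electrons from cytochrome c and passes them to oxygen while it pumps protons across the inner membrane. Its catalytic core is encoded by mitochondrial DNA, and nuclear-encoded subunits surround that core and tune it. Adult heart and skeletal muscle are known to use the heart-type isoforms Cox6a2, Cox7a1 and, in rodents, Cox8b, where other tissues use the liver-type isoforms Cox6a1, Cox7a2 and Cox8a. Cox4i1 is the common form of subunit IV and Cox4i2 is its counterpart, best known from lung and from cells exposed to low oxygen.

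All rats were male Wistar rats that had surgery at 7 weeks of age. Sham rats had the chest opened without a suture and received vehicle (0.5% carboxymethylcellulose). MI rats had the left anterior descending coronary artery ligated for the rest of the experiment and received the same vehicle, and MI + UA rats had the same ligation and received UA by gavage. By the design notes, dosing was daily for 8 weeks, began 24 hours after surgery and used UA at 50 mg/ml, with the given volume set from body weight; the study's methods say the same, but its results text describes the dose and its start differently, so no dose per body weight is given. Each group held 4 rats with 1 library each (Sham rats 12, 17, 32 and 38, MI rats 36, 57, 61 and 89, MI + UA rats 29, 58, 64 and 66), and values per rat are given in this order. RNA came from formalin-fixed, paraffin-embedded ventricular sections, so each library mixes all cell types of a section, and fewer cells of a type cannot be told apart from less RNA per cell. Rat 66 is labelled MI + UA, but the study's supplementary echocardiography listing has it among the vehicle-treated MI rats. It was kept in its labelled group, and the members' fold changes and ratio differences that rest on it are also given without it.

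The libraries held 6228706 to 19031695 reads on genes, of which 50.2% to 58.6% fell on the 13 protein-coding genes of mitochondrial DNA. One count was worth 0.0563 to 0.168 CPM (counts relative to the library's total, scaled by the TMM method). Reads on genes were also divided by these plus reads on no gene, ambiguous reads and reads without a unique alignment. This share was 49.2% to 52.1% in Sham, 46.3% to 48.7% in MI and 45.2% to 49.6% in MI + UA. Every MI library was thus below every Sham library, and the part of this share in the members' fold changes was not tested. The heart label held up against its markers: all 9 cardiomyocyte markers found were above 0 in every library. Their summed level was 45732 to 51947 CPM in Sham, 31732 to 37555 CPM in MI and 33419 to 44482 CPM in MI + UA, and all 9 passed the test as lower after infarction. For other cells, 5 of 7 fibroblast, 7 of 8 macrophage and 4 of 10 mural markers passed as higher in MI against Sham, where 5.82% of all genes tested did. Of the 6 endothelial markers 1 passed as lower. Across all genes tested 5.53% passed as lower, which is also the share to set beside the 9 cardiomyocyte markers.

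The promoters of Cox4i1 and Cox6a2 are shown because these isoforms passed the test as lower in MI against Sham. Their partners Cox4i2 and Cox6a1 did not pass, but neither isoform ratio differed detectably between MI and Sham. The sequences are those of RefSeq on assembly GRCr8, whereas the counts were made on another assembly, and cover 250 bases before to 50 after the annotated start. Each is written 5′ to 3′ along the gene's own strand, and capitals mark every match to a motif. The motifs searched on both strands were the ETS core CCGGAAG, the MEF2 core (CTA and TAG with any 4 bases between), the E-box CAGCTG, the estrogen-related receptor half-site AAGGTCA, the NRF1 core (GCGCA and GCGC with any 1 base between) and the YY1 core AAGATGGC.
Cox4i1 promoter, chr19:65630133-65630432, plus strand: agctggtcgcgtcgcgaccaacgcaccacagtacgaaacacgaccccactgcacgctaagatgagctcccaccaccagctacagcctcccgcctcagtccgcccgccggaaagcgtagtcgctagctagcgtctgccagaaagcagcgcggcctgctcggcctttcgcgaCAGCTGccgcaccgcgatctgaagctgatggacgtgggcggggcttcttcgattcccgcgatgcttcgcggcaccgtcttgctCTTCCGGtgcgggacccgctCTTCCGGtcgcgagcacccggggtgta
Cox6a2 promoter, chr1:192219667-192219966, minus strand: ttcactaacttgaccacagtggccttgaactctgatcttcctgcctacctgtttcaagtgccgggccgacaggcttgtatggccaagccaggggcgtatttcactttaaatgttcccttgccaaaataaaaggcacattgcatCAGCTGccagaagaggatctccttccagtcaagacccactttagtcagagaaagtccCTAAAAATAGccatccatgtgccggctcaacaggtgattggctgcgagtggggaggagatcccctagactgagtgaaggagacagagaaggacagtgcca

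Both windows held an E-box, and they differed in the ETS and MEF2 cores. The Cox4i1 window held 2 ETS cores, both on the opposite strand and just after the start, from base 3 to 9 and from 23 to 29, and 1 E-box from -80 to -75. The Cox6a2 window held 1 MEF2 core from -50 to -41, and 1 E-box from -107 to -102. The ETS core occurred in 8.75% of 33469 rat promoter windows of this length, the MEF2 core in 3.84% and the E-box in 15.1%. The remaining motifs (the half-site in 4.61%, the NRF1 core in 4.25% and the YY1 core in 3.17% of windows) were found in neither. The Cox7a1 window held 1 E-box, from 43 to 48, and the windows of Cox6b1 and Cox7a2l held no match; Cox4i2 and Cox6a1 had no entry. The E-box reads the same on both strands and was counted once. No motif overlapped another in these windows, and a match to such short letters is a description of the sequence only.

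The common subunit IV isoform, the heart-type subunit VIa isoform and subunit VIb were lower in infarcted hearts. Of the 7 members measured, 3 (Cox4i1, Cox6a2 and Cox6b1) passed the test as lower in MI than in Sham and none as higher. Across all genes tested, 5.53% passed as lower at an adjusted p under 0.05 (edgeR quasi-likelihood test, Benjamini-Hochberg adjustment over the 18182 genes). All 7 fold changes were below 0, with a median log2 fold change of -0.42, where the median of all genes tested was 0.026. Cox4i1, Cox6a2, Cox6b1 and Cox7a1 had CPM ranges that did not overlap, with every MI rat below every Sham rat, against 7.56% of all genes tested.

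**Figure D1:**
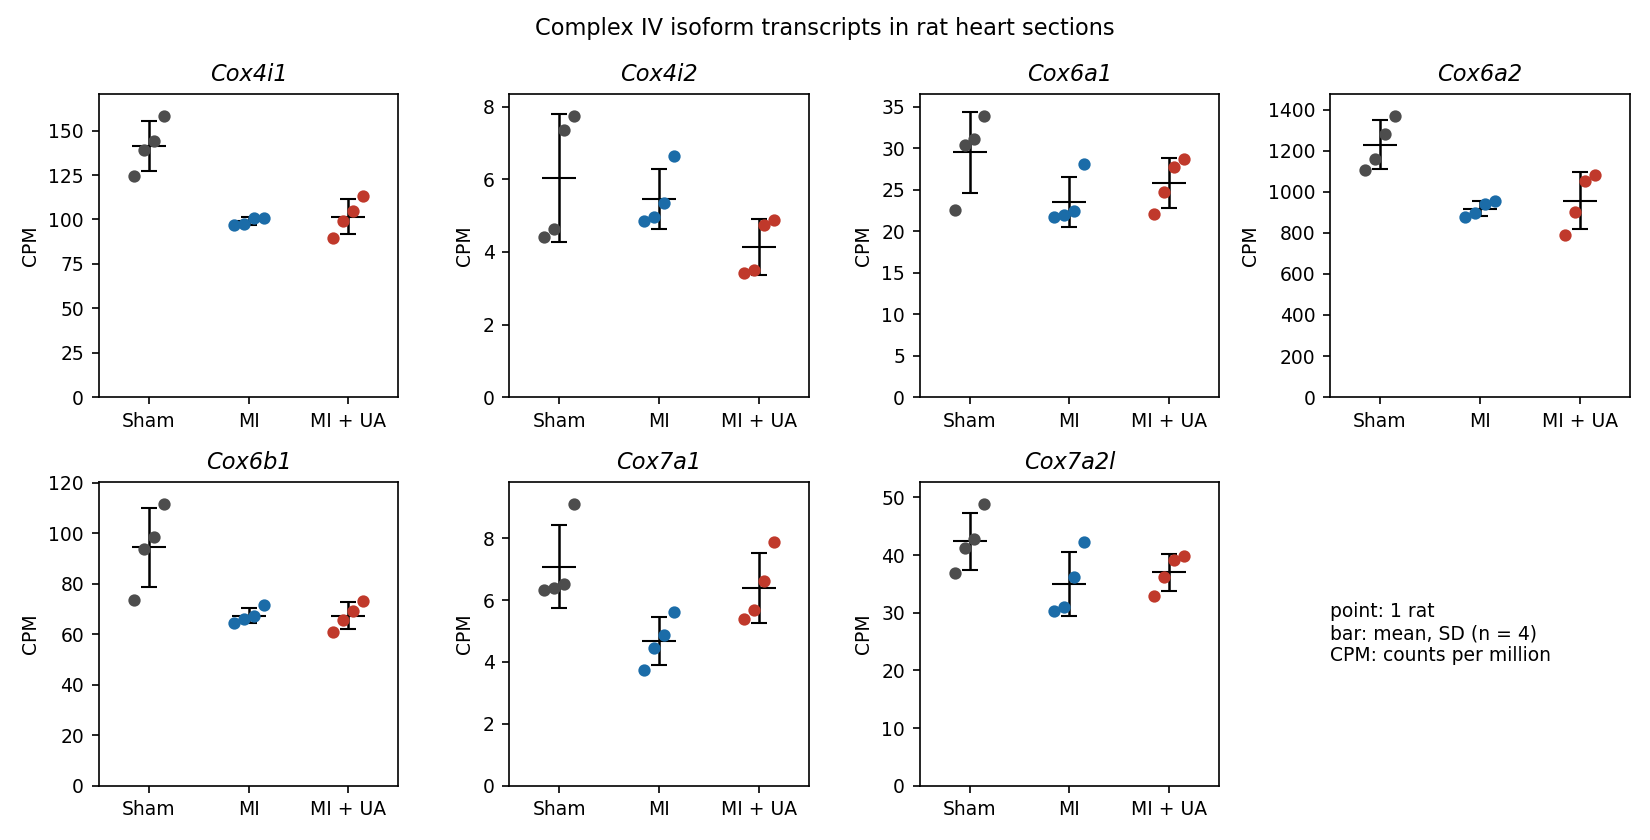
TMM-scaled CPM of the 7 measured members (one panel each, vertical axes from 0) in Sham, MI and MI + UA, with 1 point per rat and bars for mean and SD of 4 rats. The MI points of Cox4i1, Cox6a2, Cox6b1 and Cox7a1 all lie below the Sham points, whereas those of Cox4i2, Cox6a1 and Cox7a2l overlap with Sham.

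Cox4i1, the common isoform of the largest nuclear-encoded subunit, measured 124, 139, 144 and 158 CPM in the Sham rats. It measured 96.9, 101, 101 and 97.2 CPM in the MI rats and 99.1, 89.8, 104 and 113 CPM in the MI + UA rats. Both infarcted groups lay wholly below Sham and overlapped with each other. For MI against Sham the log2 fold change was -0.52 (SE 0.0875, adjusted p = 0.000533 by edgeR), a level that fell by 30.1%. In MI + UA against Sham it was -0.48 (SE 0.0873, edgeR adjusted p = 0.00138), and without rat 66 it was -0.53 (adjusted p = 0.000532).

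Cox4i2, the counterpart that replaces Cox4i1 in part of the enzyme in some tissues, was counted with 31 to 73 reads per library. It measured 4.64, 7.36, 7.74 and 4.41 CPM in Sham, 5.34, 4.86, 6.64 and 4.97 CPM in MI and 3.43, 4.88, 4.74 and 3.49 CPM in MI + UA. The Sham rats split into a high and a low pair that spanned all MI values, and rats 29 and 66 of MI + UA were below every other rat. MI against Sham gave a log2 fold change of -0.13 (SE 0.21, 95% interval -0.57 to 0.32, edgeR adjusted p = 0.794). Against Sham, MI + UA gave -0.57 (SE 0.22, unadjusted p = 0.0176, adjusted p = 0.120 by edgeR), which did not pass. Without rat 66 this value was -0.49 with an adjusted p of 0.237.

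Cox6a2, the heart and muscle form of subunit VIa, was counted with 124606 reads over the 12 libraries. It measured 1106, 1157, 1281 and 1368 CPM in Sham, 896, 941, 955 and 877 CPM in MI and 1053, 787, 902 and 1083 CPM in MI + UA. Every rat with an infarct was below every Sham rat, and MI + UA spread wider than MI, with rat 58 lowest and rats 29 and 66 highest. Between MI and Sham the log2 fold change was -0.42 (SE 0.0965, edgeR adjusted p = 0.00597), so the level fell by 25.3%. Between MI + UA and Sham it was -0.36 (SE 0.0964, edgeR adjusted p = 0.0205), and this call was lost when Sham rat 32 or 38 or MI + UA rat 58 or 64 was left out. The highest adjusted p among those was 0.0909. Without rat 66 the fold change was -0.43 with an adjusted p of 0.00567.

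Cox6a1, the liver-type form of the same subunit, measured 22.6, 30.3, 31.1 and 33.9 CPM in Sham, 21.7, 22.0, 28.0 and 22.4 CPM in MI and 28.6, 22.1, 27.7 and 24.8 CPM in MI + UA. Sham rat 12 lay with the low MI rats and MI rat 61 with the MI + UA rats, so the groups overlapped. The log2 fold change in MI against Sham was -0.32 (SE 0.13, edgeR adjusted p = 0.113), which did not pass; without Sham rat 12 it was -0.44 with an adjusted p of 0.0234. The value for MI + UA against Sham was -0.19 (SE 0.13, edgeR adjusted p = 0.421), -0.16 without rat 66, and -0.30 to -0.11 over all rats left out in turn, the ends being those without Sham rats 12 and 38.

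Cox6b1, the common form of subunit VIb, which bridges the monomers of the dimeric enzyme, measured 73.6, 98.6, 93.8 and 111 CPM in Sham. It measured 65.9, 64.4, 71.4 and 67.1 CPM in MI and 73.3, 60.7, 65.8 and 69.2 CPM in MI + UA. All infarcted rats were below all Sham rats, with Sham rat 12 only just above MI + UA rat 29. It changed by -0.49 on the log2 scale in MI against Sham (SE 0.10, edgeR adjusted p = 0.00334), a level that fell by 28.7%. The change was -0.48 in MI + UA against Sham (SE 0.10, edgeR adjusted p = 0.00418), and -0.50 without rat 66 (adjusted p = 0.00585).

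Cox7a1, the heart and muscle form of subunit VIIa, was counted with 31 to 138 reads per library. It measured 6.52, 9.09, 6.40 and 6.32 CPM in Sham, 5.63, 4.86, 4.46 and 3.75 CPM in MI and 7.88, 5.39, 6.63 and 5.68 CPM in MI + UA. Every MI rat was below every Sham rat, and the MI + UA rats reached into the Sham range. In MI against Sham the log2 fold change was -0.59 (SE 0.19, edgeR adjusted p = 0.0509), just above the threshold; 7 of 19 alternative settings put it under 0.05, over a range of 0.0342 to 0.182. MI + UA against Sham gave -0.13 (SE 0.19, edgeR adjusted p = 0.748), and -0.068 without rat 66 (adjusted p = 0.895).

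Cox7a2l, also called SCAF1, is a relative of subunit VIIa that joins complexes III and IV in supercomplexes. It measured 36.9, 48.8, 41.2 and 42.8 CPM in Sham, 31.1, 30.3, 42.2 and 36.2 CPM in MI and 36.2, 32.9, 39.9 and 39.2 CPM in MI + UA. MI rat 61 lay among the Sham rats and the rest of that group below them. For MI against Sham the log2 fold change was -0.28 (SE 0.11, edgeR adjusted p = 0.131), which did not pass; without MI rat 61 it was -0.38 with an adjusted p of 0.0414. In MI + UA against Sham it was -0.19 (SE 0.11, edgeR adjusted p = 0.340), -0.22 without rat 66 and -0.12 without Sham rat 17.

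UA changed no member detectably against MI. None of the 7 passed at an adjusted p under 0.05, as was so for 0% of all genes tested. At an unadjusted p under 0.05 there was 1 member, Cox7a1, against 3.79% of all genes tested. Its log2 fold change was 0.46 (SE 0.19, 95% interval 0.073 to 0.85, edgeR unadjusted p = 0.0222, adjusted p = 1.00), with MI + UA rat 58 inside the MI range and the other MI + UA rats above it. Without rat 66 it was 0.53. Cox4i2 had the opposite sign, -0.44 (SE 0.21, 95% interval -0.89 to 0.0033, edgeR unadjusted p = 0.0516), -0.36 without rat 66 and -0.24 with rat 66 counted in MI.

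The intervals bound what these 8 libraries could have missed. For Cox4i1 the log2 fold change in MI + UA against MI was 0.04 (95% interval -0.14 to 0.22), for Cox6a2 0.06 (-0.14 to 0.26) and for Cox6b1 0.0032 (-0.21 to 0.22). For Cox6a1 it was 0.14 (-0.12 to 0.40) and for Cox7a2l 0.08 (-0.15 to 0.32), and leaving out 1 rat moved these last values over 0.076 to 0.23 and 0.027 to 0.19. None of the 7 had CPM ranges that stood apart in either direction. Of all genes, 1.18% were higher without overlap, and the share that was lower was not counted. DESeq2 also called no member in this comparison. Without rat 66 the values of Cox4i1, Cox6a2 and Cox6b1 were -0.017, -0.0041 and -0.010, and those of Cox6a1 and Cox7a2l 0.16 and 0.053.

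**Figure D2:**
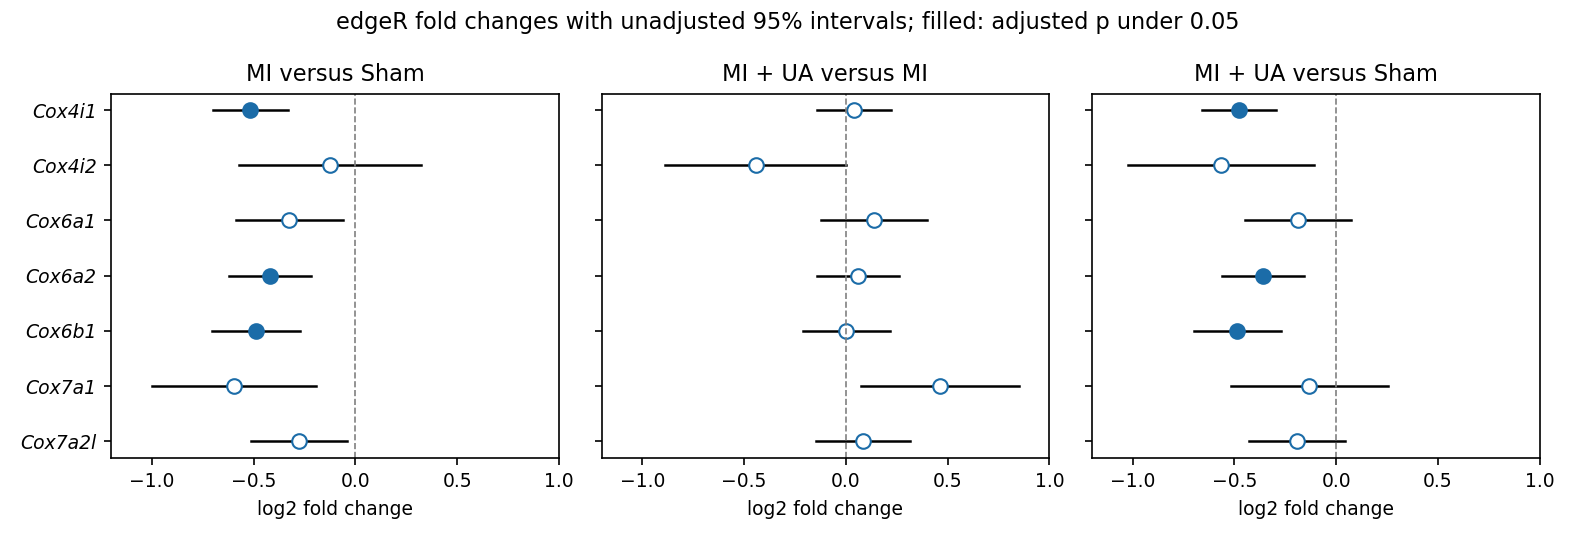
Log2 fold changes of the 7 members (horizontal axis) in the 3 comparisons, with 95% intervals not adjusted for multiple tests and filled points where the adjusted p was under 0.05. Filled points are Cox4i1, Cox6a2 and Cox6b1 in both comparisons with Sham, and the MI + UA versus MI panel has none.

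Against Sham, the treated infarcted hearts carried 3 members that passed as lower (Cox4i1, Cox6a2 and Cox6b1), where 4.27% of all genes tested did. Their CPM ranges lay wholly below Sham, against 6.46% of all genes. The median log2 fold change of the 7 members was -0.36, and that of all genes tested 0.023. Both comparisons with Sham use the same 4 Sham rats, so they are not independent of each other.

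The balance within each pair was asked by dividing the isoforms' counts within each rat, which removes library size and, between groups, gene length. Reads on Cox6a2 made up 97.0% to 98.0% of the reads on both subunit VIa isoforms in all 12 rats. The mean log2 ratio of Cox6a2 to Cox6a1 was 5.39 ± 0.15 in Sham, 5.29 ± 0.14 in MI and 5.21 ± 0.18 in MI + UA (SD, n = 4). The groups overlapped, and MI rat 61 and MI + UA rat 64 had the lowest ratios of their groups. The difference was -0.10 in MI against Sham (two-sided exact permutation p = 0.486), -0.08 in MI + UA against MI (exact p = 0.486) and -0.18 in MI + UA against Sham (exact p = 0.2). Without rat 66 the last pair of differences was -0.17 (exact p = 0.171) and -0.26 (exact p = 0.0571, the smallest that 3 rats against 4 allow). Leaving out any 1 rat gave -0.15 to -0.026 for MI against Sham, -0.17 to -0.022 for MI + UA against MI and -0.26 to -0.11 for MI + UA against Sham.

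Reads on Cox4i2 were a small share of subunit IV reads. In the Sham rats the share was 3.6%, 5.02%, 5.09% and 2.71%, in the MI rats 5.22%, 4.59%, 6.18% and 4.86%, and in the MI + UA rats 3.34%, 5.16%, 4.34% and 2.99%. The lowest share, in Sham rat 38, had a 95% Wilson interval of 1.97% to 3.72%, and the highest, in MI rat 61, one of 4.87% to 7.81%; the intervals cover counting error only. MI rats spanned a narrow upper range, and Sham and MI + UA rats were found both within and below it.

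On the log2 scale the ratio of Cox4i2 to Cox4i1 was -4.58 ± 0.45 in Sham, -4.18 ± 0.19 in MI and -4.62 ± 0.38 in MI + UA (SD, n = 4). It was 0.40 higher in MI than in Sham (two-sided exact permutation p = 0.229, and 0.21 to 0.52 when any 1 rat was left out) and 0.44 lower in MI + UA than in MI (difference -0.44, exact p = 0.114). Neither difference passed the test, and the groups overlapped in both comparisons. Without rat 66 the difference between MI + UA and MI was -0.31 (exact p = 0.229), and with rat 66 counted in MI it was -0.14 (exact p = 0.643). MI + UA differed from Sham by -0.04 (exact p = 0.914), or by 0.086 without rat 66. After adjustment over the 6 tests of both pairs the lowest p was 0.457, and 4 rats against 4 allow no exact p below 0.0286.

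**Figure D3:**
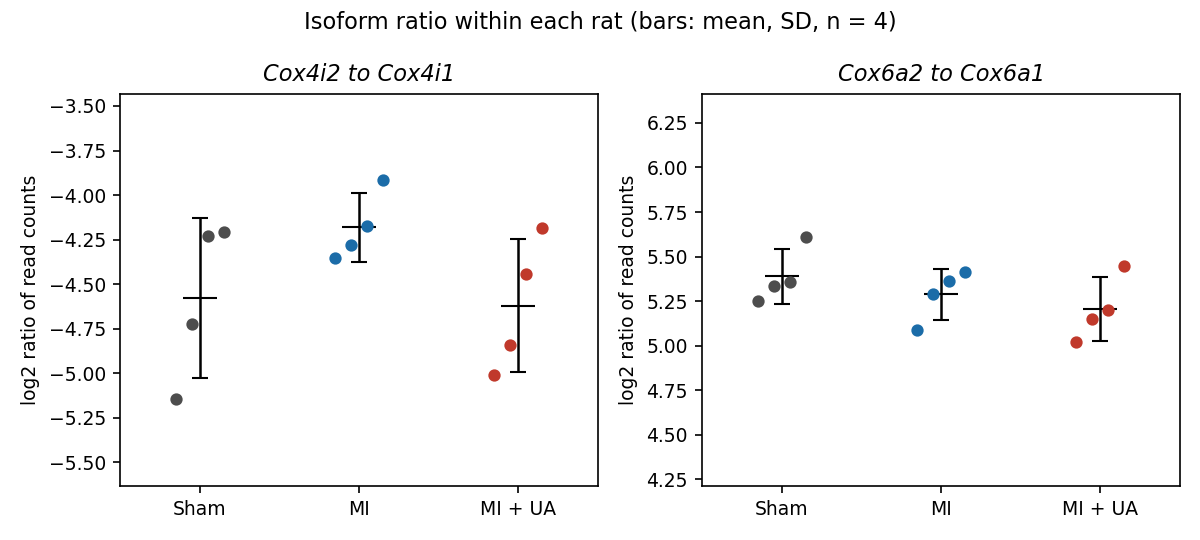
Log2 ratio of read counts within each rat for Cox4i2 to Cox4i1 (left) and Cox6a2 to Cox6a1 (right), 1 point per rat with mean and SD of 4 rats; both vertical axes span the same number of log2 units. The groups overlap in both panels, and the Cox4i2 to Cox4i1 ratio spreads least in MI.

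Most of the other subunits tested were lower in MI as well. Of 13 names, 12 had a row and 10 were tested; Cox7b2 and Cox8c had too few counts and Cox6b2 had no row. In MI against Sham all 10 log2 fold changes were below 0 (median -0.40, beside 0.026 for all genes tested) and 6 passed as lower, where 5.53% of all genes tested did: Mt-co1, Cox5a, Cox5b, Cox6c, Cox7b and Ndufa4. In MI + UA against MI none passed, and in MI + UA against Sham the same 6 passed, where 4.27% of all genes did.

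Cox5a, which with Cox4i1 forms an early building block of the enzyme, measured 117, 111, 119 and 130 CPM in Sham, 76.1, 85.8, 69.0 and 66.8 CPM in MI and 82.4, 73.5, 78.6 and 86.5 CPM in MI + UA. Its groups with an infarct lay wholly below Sham, with a log2 fold change of -0.69 in MI (SE 0.0903, edgeR adjusted p = 4.49e-05). Cox5b, a zinc-binding subunit on the matrix side, had a log2 fold change of -0.53 (SE 0.0828, edgeR adjusted p = 0.000239) and Cox7b one of -0.57 (SE 0.11, adjusted p = 0.00114). Cox6c measured -0.44 (SE 0.10, edgeR adjusted p = 0.00590) and Ndufa4, first assigned to complex I and now counted with complex IV, -0.41 (SE 0.0809, adjusted p = 0.00199).

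Of the mitochondrially encoded core, Mt-co1, the subunit that holds the oxygen-reducing centre, fell by 0.38 on the log2 scale (SE 0.10, edgeR adjusted p = 0.0182). Mt-co2 measured -0.26 (SE 0.11, adjusted p = 0.136 by edgeR) and Mt-co3 -0.30 (SE 0.11, adjusted p = 0.0770), and neither passed. Cox7c measured -0.31 (SE 0.11, edgeR adjusted p = 0.0823). Ndufa4l2, a low-oxygen-induced relative of Ndufa4, measured -0.20 (SE 0.21, 95% interval -0.64 to 0.24, edgeR adjusted p = 0.635), and with Cox4i2 it was one of the subunit genes whose interval included 0.

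Of 30 assembly factors named, 19 had a row and 17 were tested, and 5 passed as lower in MI against Sham with none higher (median log2 fold change -0.29), where 5.53% of all genes tested were lower. These were Cox10 and Cox15, which make the heme A of the active centre (-0.35 and -0.49; edgeR adjusted p = 0.0138 and 0.000590), and Taco1, a translational activator of Mt-co1 (-0.34, adjusted p = 0.0404). The others were Lrpprc, which stabilises mitochondrial mRNAs (-0.46, adjusted p = 0.00383), and Higd2a, which acts in assembly of the enzyme and its supercomplexes (-0.53, adjusted p = 0.00441). Without MI rat 61 the count was 3. In MI + UA against MI none of the 17 passed, and in MI + UA against Sham 4 did, beside 4.27% of all genes.

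**Figure D4:**
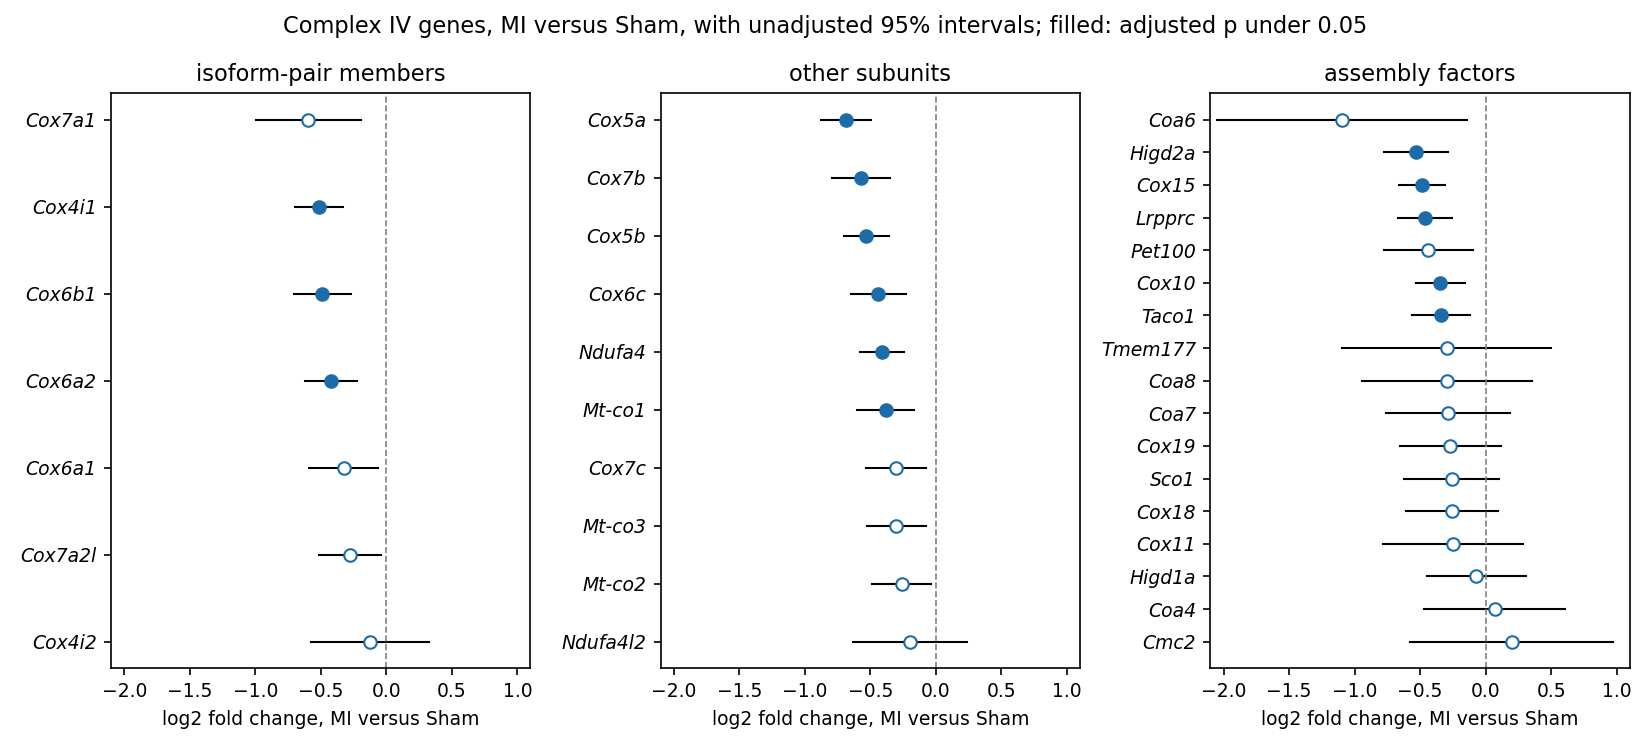
Log2 fold change in MI versus Sham (horizontal axis) of the members, the 10 other subunits and the 17 assembly factors tested, with 95% intervals not adjusted for multiple tests and filled points where the adjusted p was under 0.05. All points of the members and other subunits lie below 0, and 15 of 17 assembly factors do.

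One of the cytochrome c genes and its partner in complex III were also lower, where 5.53% of all genes tested passed as lower. Cycs, the somatic cytochrome c, measured -0.50 in MI against Sham (SE 0.10, edgeR adjusted p = 0.00294), and Cyc1, the complex III subunit that hands electrons to it, -0.47 (SE 0.0899, adjusted p = 0.00147). Cyct, the testis form of cytochrome c, measured -0.46 (95% interval -1.94 to 1.03, edgeR adjusted p = 0.773) and did not pass. Among 6 genes known to act on Cox4i2 transcription or on turnover of subunit IV, listed in 7 rows, 1 passed in MI against Sham. This was Lonp1, a matrix protease, with -0.41 (SE 0.12, edgeR adjusted p = 0.0374), though its group ranges overlapped. Of all genes tested, 5.53% passed as lower and 5.82% as higher, so this count is no result about the list. Rbpj, a factor that binds the Cox4i2 promoter, measured 0.25 (adjusted p = 0.129 by edgeR) and Cxxc5, described as its inhibitor there, -0.18 (adjusted p = 0.233). Chchd2, an activator, is listed in 2 rows with -0.16 and -0.26 (adjusted p = 0.591 and 0.917 by edgeR).

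Hif1a and Epas1 encode factors that respond to low oxygen. Hif1a measured 0.04 in MI against Sham (95% interval -0.17 to 0.25, edgeR adjusted p = 0.872) and Epas1 -0.21 (adjusted p = 0.0673). In MI + UA against Sham Epas1 passed with -0.24 (SE 0.0728, edgeR adjusted p = 0.0440), where 4.27% of all genes tested passed as lower. None of the 7 rows of these genes passed in MI + UA against MI.

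Since cardiomyocyte markers were lower in the infarcted sections too, each member's counts were also set against the summed counts of the 9 markers in the same rat, as a description added after the data were seen. Ttn, the giant sarcomere protein titin, held 70.1% to 76.4% of these marker counts, so the scale is mostly counts per Ttn. Per 1000 marker counts, Cox4i1 had 2.87 ± 0.26 counts in Sham, 2.86 ± 0.23 in MI and 2.75 ± 0.26 in MI + UA (SD, n = 4). Cox6a2 had 24.8 ± 1.83 in Sham, 26.5 ± 2.43 in MI and 25.8 ± 2.26 in MI + UA. On this scale all 7 members overlapped between groups in all 3 comparisons, those 3 that passed on the CPM scale included. Ranges that did not overlap on it, in either direction, made up 38.9% of all genes tested in MI against Sham, 2.28% in MI + UA against MI and 26.3% in MI + UA against Sham. The median log2 difference of all genes in MI against Sham was 0.53 on this scale.

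The scale depends on that gene. Set against the 8 markers without Ttn, whose sum includes Myh6 (a level that fell by 52.7% in MI against Sham), 2 members, Cox6a2 and Cox6a1, were higher in every MI rat than in every Sham rat, and the other members overlapped. This held for 50.2% of all genes tested, whose median log2 difference was 0.68 on this scale, so the count is no result about the members. Cox6a2 had 87.1 ± 4.12 counts per 1000 of these in Sham, 104 ± 5.09 in MI and 97.1 ± 6.36 in MI + UA (SD, n = 4). Cox4i1 had 10.0 ± 0.76, 11.2 ± 0.35 and 10.4 ± 0.52 in the same order.

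With all 9 markers, Cox6b1 gave 1.91, 1.95 and 1.82 counts per 1000 marker counts as means of Sham, MI and MI + UA. Cox7a1 gave 0.145, 0.134 and 0.175, so its MI + UA mean was the highest of the groups on this scale. Cox4i2 gave 0.123, 0.159 and 0.114, and its MI mean was the highest. The median of the 9 markers in MI against Sham was -0.43 on the log2 scale, beside -0.42 for the members. Summed over the 7 markers, fibroblast genes ranged from 1125 to 1433 CPM in Sham, 2174 to 3537 CPM in MI and 2192 to 3645 CPM in MI + UA. The 8 macrophage genes ranged from 86.7 to 101 CPM, 153 to 204 CPM and 138 to 215 CPM in the same order, and no marker was at 0 in any rat. The part that the cell make-up of the sections has in the members' fold changes was not tested.

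**Figure D5:**
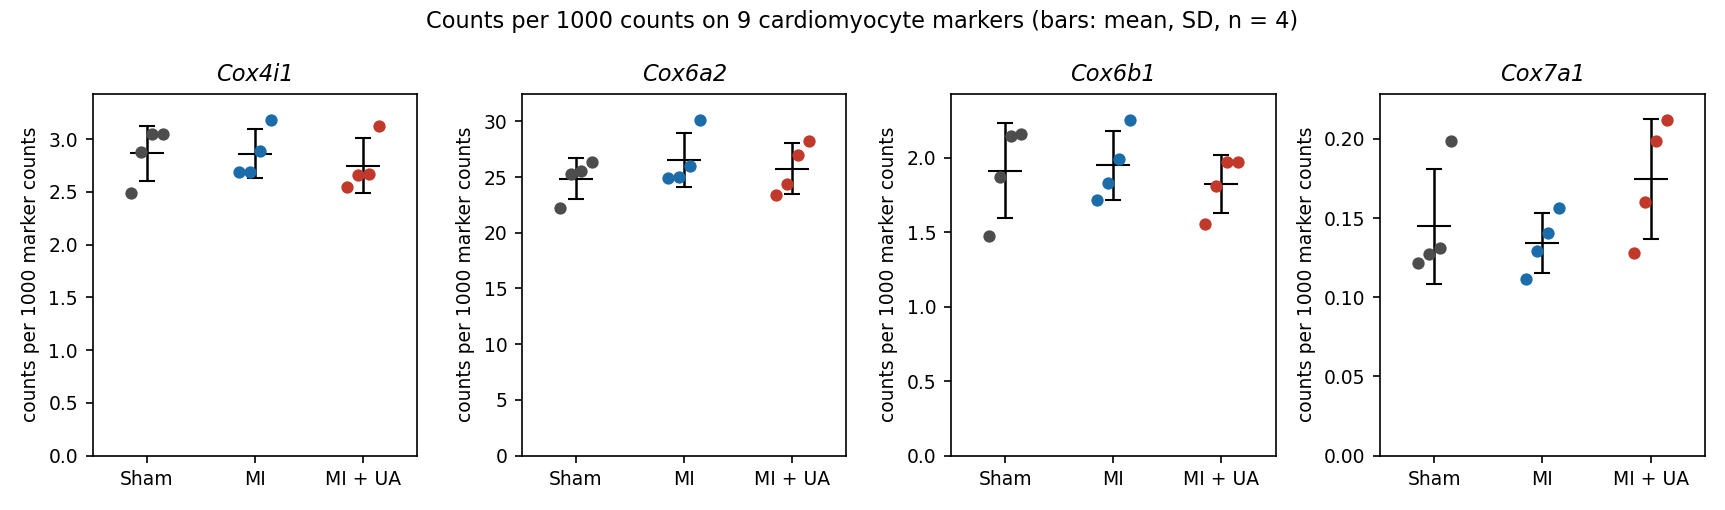
Counts of Cox4i1, Cox6a2, Cox6b1 and Cox7a1 per 1000 counts on 9 cardiomyocyte marker genes in the same rat (vertical axes from 0), 1 point per rat with mean and SD of 4 rats. Ttn holds most of the marker counts. The groups overlap in every panel; without Ttn the Cox6a2 values of MI lie above those of Sham.

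Pearson correlations of log2 CPM over the 12 rats were taken for 10929 genes with a symbol and an average log2 CPM of at least 1. The genes nearest to Cox6a2 were Des (r = 0.96), Fndc5 (0.96), Tns1 (0.96), Tcea3 (0.96) and Tnnt2 (0.95). Des encodes desmin, the muscle intermediate filament, and Tnnt2 cardiac troponin T, itself one of the 9 markers. With each group centred on its own mean these correlations were 0.87 to 0.93. Those nearest to Cox4i2 were Pitpnm3 (0.84), Apmap (0.81), Sncaip (0.79), Mrpl39 (0.79) and Itga6 (0.78), or 0.64 to 0.81 with each group centred. Cox4i2 had only 31 to 73 reads per library. Whether such values exceed what the highest of 10929 correlations over 12 rats reaches by chance was not tested. These correlations are descriptions over 12 libraries of the same tissue and the same 3 groups, whose depths differed.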

How the data were processed

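Bulk RNA sequencing of 12 rat left ventricles was used as deposited: per the labels and the study's methods, the authors prepared rRNA-depleted, strand-specific libraries from fixed sections, aligned reads with STAR (2.6.1c) and counted reads per gene with HTSeq, giving raw counts on mRatBN7.2 with Ensembl annotation. The strand setting of the counting is not given in the sources used here, so overlapping antisense genes cannot be separated, and reads shared with near-identical pseudogenes (known for Cox4i1, Cox6a1 and Cox6b1) make those counts less certain. Another MI + UA library was not analysed here.

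From the deposited counts, 5 summary lines of HTSeq that name no gene were removed. The share of reads on genes (45.2% to 52.1%) counts reads on no gene, ambiguous reads and reads without a unique alignment beside them. Low-quality and unaligned reads are outside this share. Genes with at least 10 counts in all were scaled by TMM and fitted with edgeR (4.0.16, R 4.3.3) by glmQLFit and glmQLFTest, with all 3 groups in one fit, Benjamini-Hochberg adjustment over 18182 genes and a threshold of 0.05. The SE is the fold change divided by the root of F. Isoform ratios used log2((count + 0.5)/(count + 0.5)) per rat and a two-sided exact permutation test over 70 groupings (scipy 1.17.1). Alternatives were DESeq2 (1.42.0), other filters and scalings, the groups compared alone, rat 66 counted in MI, and leaving out each rat. The fit was tested on simulated data, where changes of 0.5 on the log2 scale were recovered for 29 of 100 genes. Changes of 1 were recovered for 39 of 50 genes and changes of 2 for 50 of 50, with 9 false calls among 17891 genes tested. A member that did not pass can therefore still have changed by an amount of this size. The p-values measure spread between rats.

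Genes named were all members, all other subunits, assembly factors that passed in MI against Sham, the Cox4i2 regulators and, for Cox4i2 and Cox6a2, the 5 most correlated genes. Outside this rule, Cycs, Cyct and Cyc1 come from a short list of cytochrome c genes, Ttn and Myh6 are named as markers that carry a scale, and Cox7a2l2, Pet100 and Sco1 were chosen after their values were seen. Members, lists and motifs were chosen with earlier results of these data known.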

Additional observations from a re-analysis of the deposited data

Results flagged for a closer look

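In 27 sets of 4 values (the members and ratios in each group), 2 had a value far from the rest, measured as its gap to the nearest value divided by the whole range and compared with Dixon's 95% critical value; chance gives about 1 in 20. Cox6a1 in MI rat 61, at 28.0 CPM, had a ratio of 0.891. Cox7a1 in Sham rat 17, at 9.09 CPM, had a ratio of 0.926; without that rat, Cox7a1 in MI + UA against Sham was 0.0071 on the log2 scale in place of -0.13.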

How the results depend on the processing

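No paired analysis was possible because the groups share neither rats nor replicate numbers. Of 399 alternative fold changes of members, 373 kept their direction and side of the threshold, as did 61 of 66 ratio values; the calls of Cox4i1, Cox6a2 and Cox6b1 in MI against Sham held in all 19 settings each. The Cox7a1 call in MI against Sham was gained with DESeq2 (adjusted p 0.0442), the groups compared alone (0.0457), filterByExpr (0.0432), DESeq2 size factors (0.0481), TMM without mitochondrial genes (0.0459), and without MI rat 36 or MI + UA rat 58. Values of MI + UA against MI near 0 changed sign: Cox6b1 was -0.0014 with those groups alone and -0.0021 with filterByExpr, and with rat 66 in MI Cox4i1 was -0.059, Cox6a2 -0.056 and Cox6b1 -0.018. The Cox4i2 to Cox4i1 ratio of MI + UA minus Sham was 0.086 with rat 66 in MI. Leaving out 1 rat gave ranges of -0.017 to 0.094 (Cox4i1), -0.0041 to 0.14 (Cox6a2) and -0.045 to 0.047 (Cox6b1) in MI + UA against MI, -0.26 to 0.0093 (Cox4i2, MI against Sham), -0.26 to 0.0071 (Cox7a1, MI + UA against Sham) and -0.23 to 0.086 for that ratio, and 3 to 5 assembly factors called. Causes were not tested. Low counts limit Cox4i2 and Cox7a1 most, at 595 and 733 in all, beside 124606 for Cox6a2. The part of annotation and counting in these low counts was not tested.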

Other observations

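Cox7a2l2, a listed relative of Cox7a2l outside the 10 names and looked at after its values were seen, measured 18.4, 29.6, 23.1 and 27.1 CPM in Sham, 16.4, 19.9, 17.3 and 19.4 CPM in MI and 18.7, 14.1, 15.7 and 19.5 CPM in MI + UA. Against Sham, it changed by -0.43 on the log2 scale in MI (SE 0.14, edgeR adjusted p = 0.0479) and by -0.51 in MI + UA (SE 0.14, edgeR adjusted p = 0.0217), with overlapping ranges, and -0.08 in MI + UA against MI. Reads could be split between it and Cox7a2l.

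Pet100, an assembly factor of complex IV, measured 5.04, 4.70, 5.71 and 6.60 CPM in MI and 8.06, 7.45, 6.90 and 7.26 CPM in MI + UA, beside 6.15, 7.79, 8.42 and 7.87 CPM in Sham. Every MI + UA rat was above every MI rat, as was so for 1.18% of all genes tested and, among the other complex IV genes, for Sco1 (log2 fold change 0.28) and Cox5b (0.12). MI + UA against MI gave a log2 fold change of 0.42 (SE 0.16, edgeR unadjusted p = 0.0138, adjusted p = 1.00), which did not pass, and the gene was picked after its values were seen.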
